A study of Mus musculus with 8 samples.

Results

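The aryl hydrocarbon receptor (AHR) system was examined through 6 genes, namely Ahr, Arnt, Ahrr, Tiparp, Cyp1a1 and Cyp1b1. They were found by gene symbol in the deposited expression table, where all 6 of them were present among 22063 genes. Only 3 of the 6, Arnt, Ahrr and Tiparp, had enough reads to be tested between groups, as did 10770 genes in all. Ahr, Cyp1a1 and Cyp1b1 were too low to pass the expression filter.

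The AHR is a transcription factor that is switched on by ligands, among them dioxins, polycyclic aromatic hydrocarbons and metabolites of tryptophan. Without a ligand it is held in the cytosol by HSP90 and co-chaperones such as p23. With a ligand it enters the nucleus, pairs with ARNT and binds DNA elements with a GCGTG core. Its best known targets are the cytochrome P450 genes Cyp1a1 and Cyp1b1, and the feedback inhibitors Ahrr and Tiparp. Cyp1a1 is strongly inducible in hepatocytes. Tranilast is a derivative of a tryptophan metabolite and is known as an AHR ligand, so the comparison asks whether the receptor and its targets differed with the drug.

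RNA-seq was performed on 8 libraries, 4 titled Control and 4 titled Control+tranilast, all from wild-type mice and labelled as liver. The series design gives a high-fat and high-cholesterol (HFHC) diet to both groups, and the methods describe male C57BL/6J mice that received tranilast or vehicle by mouth during the later part of the feeding period. The labels give no age, dose or time, and the methods name more than one dose without tying any to these libraries. Nothing in the labels says that the libraries of a group came from separate animals, so the p-values measure the spread between libraries, which may be technical. Library totals were between 12053036 and 15618787 estimated counts.

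The libraries were nearly free of the transcripts that define liver tissue. Of 10 hepatocyte markers, 4 had a count of 0 in every library and Alb had at most 2 counts. Only 1 had over 10 counts in every library, Ass1 with between 19 and 41, and Ttr had at most 17. The whole list held between 0.000134% and 0.000309% of the counts in the control group. In the tranilast group it held between 0.000243% and 0.000438%. The 12 macrophage markers held between 0.906% and 0.96% in the control group and between 0.884% and 0.943% in the tranilast group. Among these, 7 had over 10 counts in every library, while Mrc1, Mertk, C1qa, C1qb and C1qc had at most 11 counts in any. Of 4 Kupffer cell markers, Clec4f, Vsig4 and Timd4 were at 0 and Cd5l had at most 8 counts in any library. The markers of cholangiocytes, stellate cells and fibroblasts, endothelial cells, lymphocytes and neutrophils had at most 15 counts in any library. The values below therefore cannot be assigned to hepatocytes. The part of cell composition in the differences between groups was not tested, and in bulk RNA fewer cells of a type and less RNA per cell cannot be told apart.

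The promoters of the 4 AHR target genes are shown because the receptor acts through the GCGTG core, which is in capitals where it occurs on either strand (as GCGTG or CACGC). Each stretch covers 250 bases before and 50 bases after the transcription start in RefSeq on GRCm38.p6, and is written 5′ to 3′ on the strand of the gene. They lie at chr13:74292282-74292581 on the minus strand for Ahrr, chr3:65528197-65528496 on the plus strand for Tiparp, chr9:57697363-57697662 on the plus strand for Cyp1a1 and chr17:79715012-79715311 on the minus strand for Cyp1b1.
Ahrr: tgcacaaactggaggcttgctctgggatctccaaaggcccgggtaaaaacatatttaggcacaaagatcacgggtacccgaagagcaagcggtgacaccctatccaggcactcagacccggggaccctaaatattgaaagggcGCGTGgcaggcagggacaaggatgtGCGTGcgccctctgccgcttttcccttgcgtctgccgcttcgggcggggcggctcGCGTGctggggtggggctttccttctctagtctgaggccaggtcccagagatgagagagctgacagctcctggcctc
Tiparp: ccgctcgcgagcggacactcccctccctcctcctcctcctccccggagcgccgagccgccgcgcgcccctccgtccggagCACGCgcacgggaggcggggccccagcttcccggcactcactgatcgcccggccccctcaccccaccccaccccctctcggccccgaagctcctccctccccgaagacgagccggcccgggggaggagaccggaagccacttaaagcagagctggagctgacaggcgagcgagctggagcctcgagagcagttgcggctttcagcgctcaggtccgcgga
Cyp1a1: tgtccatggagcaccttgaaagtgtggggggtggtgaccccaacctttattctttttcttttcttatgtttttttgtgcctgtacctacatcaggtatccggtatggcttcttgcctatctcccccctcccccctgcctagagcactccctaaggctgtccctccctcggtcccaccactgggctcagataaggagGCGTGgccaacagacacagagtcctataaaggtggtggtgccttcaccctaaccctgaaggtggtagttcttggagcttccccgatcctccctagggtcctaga
Cyp1b1: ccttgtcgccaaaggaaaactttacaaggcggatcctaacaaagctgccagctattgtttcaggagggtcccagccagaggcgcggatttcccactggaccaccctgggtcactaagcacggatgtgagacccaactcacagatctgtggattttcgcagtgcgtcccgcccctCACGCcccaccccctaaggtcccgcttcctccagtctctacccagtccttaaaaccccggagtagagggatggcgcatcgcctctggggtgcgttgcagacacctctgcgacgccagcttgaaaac

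A core was found in the promoters of 5 of the 6 genes, the 4 above and Arnt. Ahr had no matching entry. By comparison, 32.4% of the 32851 promoters in the table held at least 1 core. The Ahrr promoter held 3, starting 107, 82 and 27 bases before the transcription start, and 3.91% of all promoters held 3 or more. The core nearest to the Ahrr start was also the only match of the longer TNGCGTG form in these promoters, a form present in 5.1% of all promoters and overlapping the core by construction. The single core of Cyp1a1 started 54 bases before the start, that of Cyp1b1 76 bases before, that of Tiparp 170 bases before and that of Arnt 29 bases before. A match of letters is not a binding site, and enhancers farther away were not searched.

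The partner Arnt and the target Tiparp were well expressed. Ahrr was low, at 18 to 50 counts per library, and Ahr, Cyp1a1 and Cyp1b1 were lower still, at 14 counts or fewer. On the deposited FPKM scale, which corrects for transcript length and depth, the mean over the 8 libraries was 25.8 for Arnt, 12.4 for Tiparp, 0.464 for Ahrr and 0.108 for Ahr. Cyp1b1 had a mean FPKM of 0.0025, from a count of 1, and Cyp1a1 was at 0. Arnt lay above 84.7% of all genes in the table, Tiparp above 73.0%, Ahrr above 52.4% and Ahr above 47.9%. A large share of the table was at 0, so that a rank near the middle still means very few reads. By mean FPKM, Arnt was 239 times as abundant as Ahr, and 110 times by CPM per kb of merged exons in the annotation. Neighbours in this order were separated by more than the SD between libraries, except for Cyp1b1 and Cyp1a1, which were both at or near 0. On that second scale Arnt was at 10.6 and Tiparp at 11.9 CPM per kb, and their order turned.

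**Figure D1:**
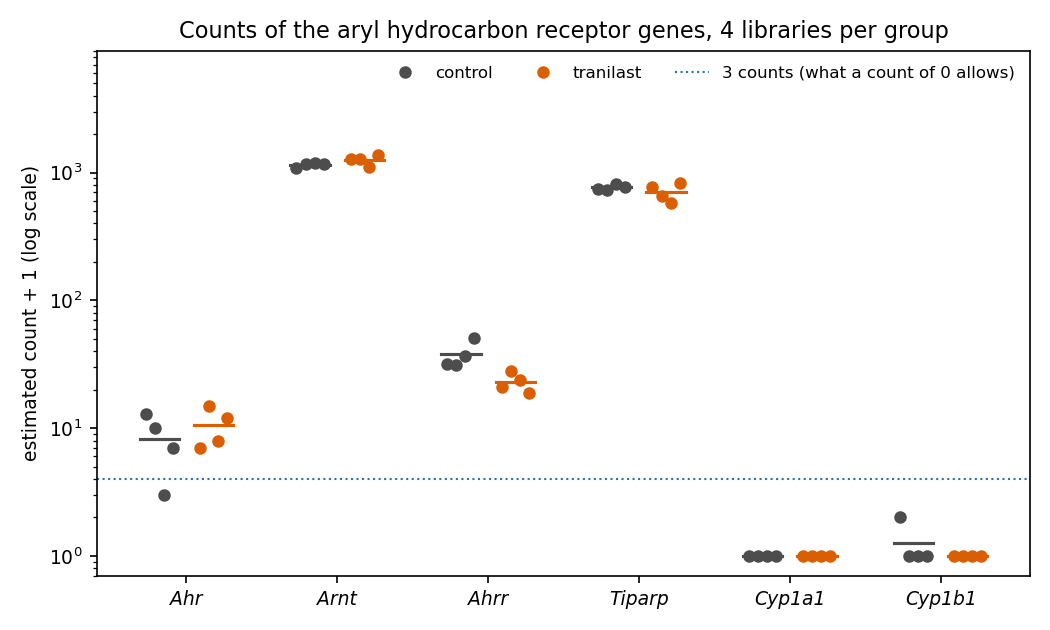
Estimated count plus 1 in each of the 8 libraries (log axis) for the 6 genes. Points are libraries, bars are group means and the dotted line marks 3 counts, an approximate upper limit for a library where no read was seen. Arnt and Tiparp lie between 573 and 1369 counts, Ahrr between 18 and 50, Ahr between 2 and 14, and Cyp1a1 and Cyp1b1 at 0 or 1.

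Of the 3 genes tested, Arnt rose, Ahrr fell and Tiparp did not pass the test. Over all genes tested, 57.0% were called at an adjusted p-value under 0.05 (28.2% higher and 28.8% lower with tranilast), and the groups did not overlap in 49.8%, as they did not in Arnt and Ahrr. A call in 2 of 3 genes, or 1 in each direction, is near this background. The median log2 fold change of all genes tested was 0.01 with TMM factors, the scaling used throughout, and 0.12 with library size alone, and Tiparp lay below this median under both. The share of called genes that were higher was 49.5% with TMM factors, 62.6% with upper-quartile factors, 70.9% with library size alone and 70.4% with the FPKM values plus 0.1.

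Ahr (ENSMUSG00000019256), which encodes the ligand-binding receptor, lies on chromosome 12 of GRCm38 from 35497974 to 35535038 in GENCODE M21. It had 12, 9, 2 and 6 counts in control libraries 1 to 4 and 6, 14, 7 and 11 counts in tranilast libraries 1 to 4. The groups overlapped almost fully, and the lowest and the second highest count both came from control libraries. In CPM, the counts scaled to a common library total with TMM factors, Ahr was at 0.508 ± 0.306 (SD, n = 4) in the control group and at 0.679 ± 0.253 (SD, n = 4) in the tranilast group. When the filter was left off so that Ahr could be fitted, the log2 fold change (tranilast minus control) came to 0.42, with a 95% interval from -0.76 to 1.60 (adjusted p = 0.597; all such values come from the quasi-likelihood model of edgeR, adjusted over every gene in the fit). The exact two-sided permutation test gave p = 0.40. A difference in Ahr was not detectable at this depth, and the interval covers both a fall and a rise of more than the median change of the called genes, which was 0.32 on the log2 scale. An exon of a long noncoding RNA on the opposite strand, Gm48236, overlaps 127 bases of Ahr, and the counting is not stated to use strand, so that reads of both cannot be told apart there.

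Arnt (ENSMUSG00000015522; chromosome 3, 95434388 to 95497240) encodes the partner that AHR shares with the hypoxia-inducible factors. It had 1091, 1161, 1191 and 1161 counts in the control libraries and 1275, 1267, 1109 and 1369 in the tranilast libraries. After scaling, the control libraries held between 77.6 and 81.0 CPM and the tranilast libraries between 88.6 and 91.7 CPM, and the groups did not overlap. The group means were 79.7 ± 1.54 CPM and 90.0 ± 1.38 CPM (SD, n = 4 each). Arnt was higher with tranilast by 12.9%, or 0.18 ± 0.038 (SE) on the log2 scale, with a 95% interval from 0.09 to 0.26 (edgeR, adjusted p = 7.88e-04). The exact two-sided permutation test gave p = 0.0286, the lowest value possible with 4 libraries per group. With library size alone the difference was 0.29 on the log2 scale. A change of 0.18 or more in either direction was seen in 56.4% of all genes tested.

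Ahrr (ENSMUSG00000021575; chromosome 13, 74211118 to 74292331) encodes the AHR repressor, an AHR target that competes for ARNT. It had 31, 30, 36 and 50 counts in the control libraries and 20, 27, 23 and 18 in the tranilast libraries. The groups did not overlap, the tranilast libraries being the lower ones, although the nearest values, 2.08 CPM in control replicate 2 and 1.95 CPM in tranilast replicate 2, were close. The mean fell from 2.55 ± 0.643 CPM in the control group to 1.60 ± 0.363 CPM in the tranilast group (SD, n = 4 each), which is -0.68 ± 0.26 (SE) on the log2 scale, with a 95% interval from -1.23 to -0.13 (edgeR, adjusted p = 0.0331). The exact two-sided permutation test gave p = 0.0286. The call was lost without control replicate 4, which held the highest count (-0.49, adjusted p = 0.151 in edgeR), without control replicate 3 (-0.71, adjusted p = 0.0535), without tranilast replicate 1 (-0.63, adjusted p = 0.0751) and without tranilast replicate 4 (-0.55, adjusted p = 0.105). It was also lost with library size alone as the scaling (-0.56, adjusted p = 0.0701) and with the deposited FPKM values plus 0.1 (-0.44, adjusted p = 0.155 in limma). The added 0.1 shrinks a difference at so low a level.

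Tiparp (ENSMUSG00000034640; chromosome 3, 65528410 to 65555518) encodes the dioxin-inducible ADP-ribosyltransferase that modifies AHR and limits its activity. It had 745, 735, 814 and 768 counts in the control libraries and 776, 650, 573 and 833 in the tranilast libraries. After scaling, the tranilast libraries fell into a higher pair (replicates 1 and 4, at 55.1 and 54.4 CPM) and a lower pair (replicates 2 and 3, at 47.1 and 45.8 CPM), with the lower pair below the control range of 51.1 to 54.4 CPM and replicate 1 above it. The group means were 53.0 ± 1.43 CPM and 50.6 ± 4.84 CPM (SD, n = 4 each). On the log2 scale the difference was -0.07 ± 0.060 (SE), which edgeR did not call (adjusted p = 0.367), and its 95% interval, from -0.19 to 0.06, bounds any rise at 0.06 and any fall at 0.19 on the log2 scale under TMM scaling. With library size alone the difference was 0.05, of the opposite sign (adjusted p = 0.485). Exons of the pseudogene 4931440P22Rik overlap 223 bases of Tiparp on the opposite strand, where the same limit holds.

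**Figure D2:**
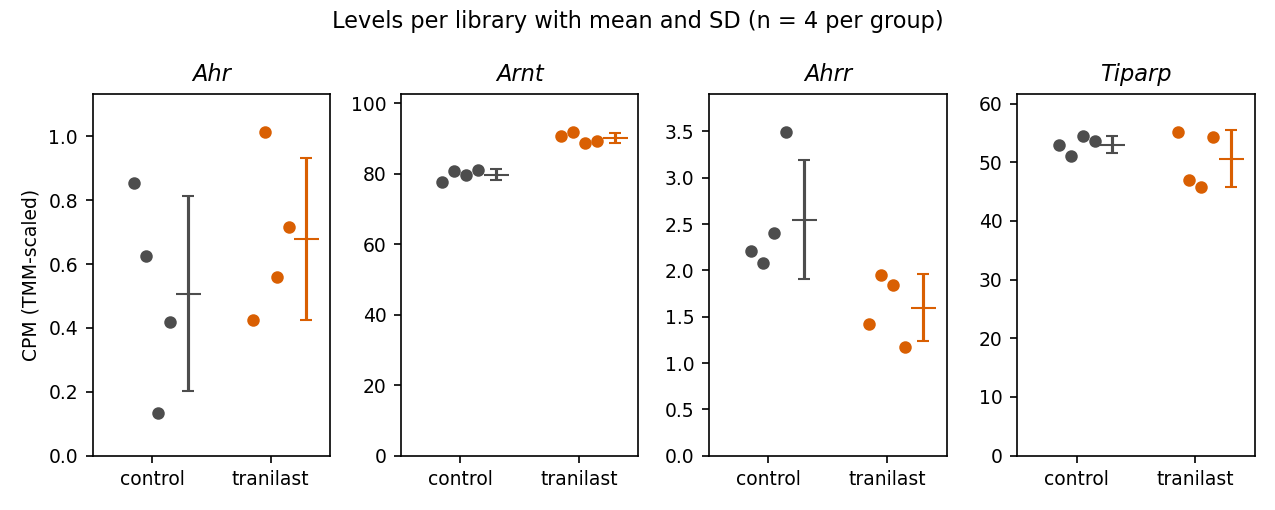
TMM-scaled CPM (linear axes from 0) of Ahr, Arnt, Ahrr and Tiparp in each of the 4 control and 4 tranilast libraries, with the mean and SD of each group beside the points. The groups are separate in Arnt (77.6 to 81.0 against 88.6 to 91.7 CPM) and in Ahrr, and overlap in Ahr and Tiparp.

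Cyp1a1 and Cyp1b1, the P450 enzymes that serve as the usual readout of AHR activity, were not expressed at a measurable level in either group. Cyp1a1 (ENSMUSG00000032315; chromosome 9, 57687928 to 57703824) had a count of 0 in all 8 libraries, including the 4 of the tranilast group. With no read seen, a level of up to 3 counts is still possible, or 0.192 to 0.249 CPM depending on the library, counting error only. Cyp1b1 (ENSMUSG00000024087; chromosome 17, 79701537 to 79715061) had 1 count in control replicate 1 and 0 in the other libraries. No fold change was computed for either gene. The limit of 3 counts is approximate and applies to a single library. An induction well above it would have been seen, while one near or below it could have been missed at this depth.

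**Figure D3:**
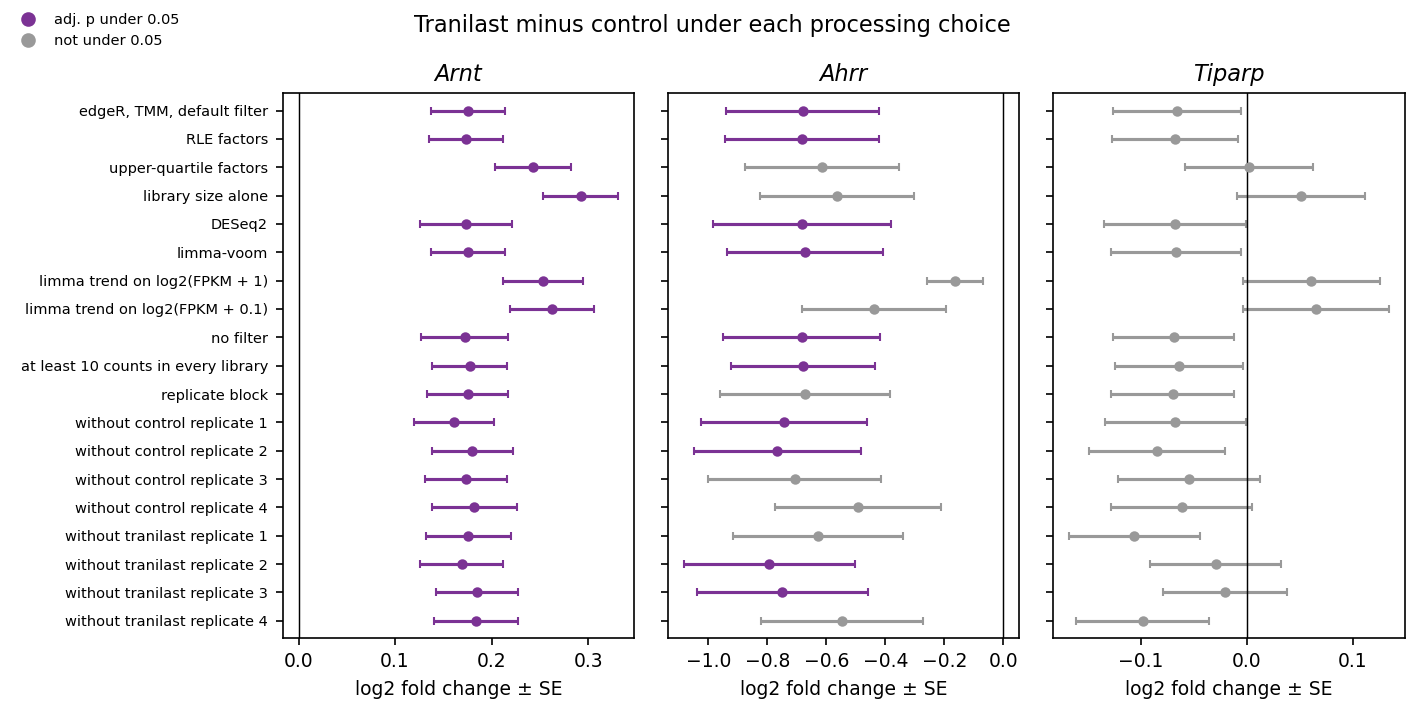
Log2 fold change (tranilast minus control) of Arnt, Ahrr and Tiparp with its standard error under the reported fit (top) and 18 other settings; purple marks an adjusted p-value under 0.05. Arnt lies between 0.16 and 0.29 and is purple throughout, Ahrr lies below 0 throughout and is grey in 9 settings, and Tiparp lies on both sides of 0. In the FPKM settings the value added to FPKM shrinks the difference of Ahrr.

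The genes most like each tested gene over the 8 libraries were named by the Pearson correlation of log2 CPM among 9763 genes with a mean count of at least 50. For Arnt they were Slc48a1 and Ttll1, with r = 0.996 each, and Ptp4a3, with r = 0.992, and 1123 genes had r over 0.9. For Ahrr they were Eef1g (r = 0.979), Bcor (r = 0.976) and Phkg2 (r = 0.96), with 44 genes over 0.9. For Tiparp they were Ggnbp2 (r = 0.932), Cox18 (r = 0.922) and St3gal1 (r = 0.916), and no others were over 0.9. These values describe 8 libraries that share the group difference and their scaling. With the group means removed, r with the named genes was between 0.909 and 0.957. The named genes were picked as the highest of 9763 over only 8 libraries, so a high r is partly a result of that choice. How many genes would pass 0.9 by chance was not tested. Ahrr itself had only 18 to 50 counts per library.

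The HSP90 and p23 genes of the cytosolic complex that holds AHR ready for its ligand were lower with tranilast. Of the 3 genes tested and reported here, 3 fell, with a median log2 fold change of -0.54, and 28.8% of all genes tested fell. Hsp90ab1, the constitutive HSP90, had between 3104 and 3131 CPM in the control libraries and between 2101 and 2161 CPM in the tranilast libraries, without overlap. It fell by 0.55 ± 0.018 (SE) on the log2 scale (adjusted p = 1.46e-14 in edgeR's test). Hsp90aa1, the inducible HSP90, had a log2 fold change of -0.54, and Ptges3, the p23 co-chaperone, of -0.37 (adjusted p = 1.52e-08 in edgeR's test). The kinase gene Src had between 1 and 18 counts and was not tested. These chaperones serve many clients besides AHR.

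All 13 genes of the coregulator and turnover list were tested, and 5 rose while 5 fell, with a median log2 fold change of -0.00, where 28.2% of all genes tested rose and 28.8% fell. The p160 coactivators moved in different directions. Ncoa1 rose from 38.6 ± 2.69 to 50.1 ± 1.59 CPM (SD, n = 4 each; log2 fold change 0.38), Ncoa2 rose by a log2 fold change of 0.14, and Ncoa3 fell from 205 ± 5.47 to 173 ± 6.98 CPM (log2 fold change -0.25). The acetyltransferase gene Ep300 (-0.36), the chromatin remodeller Smarca4 (-0.35) and Sp1 (-0.21) also fell. The largest rise of the list was in Rb1, the retinoblastoma gene, whose product binds AHR. Its control libraries held between 41.5 and 48.1 CPM and its tranilast libraries between 62.8 and 77.3 CPM (log2 fold change 0.64, adjusted p = 1.17e-07 in edgeR's test). Relb, the NF-kB subunit that can pair with AHR, rose by a log2 fold change of 0.39, and Stub1, a ubiquitin ligase, by 0.23. Cul4b, the scaffold of a ubiquitin ligase that uses AHR as a subunit, had a log2 fold change of -0.11 (adjusted p = 0.0434 in edgeR's test), a call that 12 of 18 alternatives did not keep. Crebbp (-0.00), Nrip1 (-0.01) and Trip11 (0.06) were not called, and with library size alone Crebbp (0.11) and Trip11 (0.18) were called higher.

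Most other known AHR targets were too low to test, as Cyp1a1 was. Of 20 genes on the list, 14 were not tested, and 6 of these had a count of 0 in every library: Cyp1a2, the liver P450 beside Cyp1a1, Aldh3a1, Gsta1, Ido1, Ido2 and Il22. Nqo1, the quinone reductase that both AHR and NRF2 induce, had 5 counts or fewer in each library. Among the 6 that were tested, 1 rose and 1 fell, with a median log2 fold change of 0.10, so that 2 of 6 were called, against 57.0% of all genes tested. Nfe2l2, the gene of NRF2, rose from 167 ± 2.62 to 202 ± 3.99 CPM (SD, n = 4 each; log2 fold change 0.28, adjusted p = 5.29e-07 in edgeR's test). Stc2, the gene of the secreted protein stanniocalcin-2, fell from between 47.8 and 50.9 CPM in the control libraries to between 29.0 and 31.6 CPM in the tranilast libraries (log2 fold change -0.70, adjusted p = 2.51e-09 in edgeR's test). Slc7a5, the amino acid transporter (0.03), Xdh, the xanthine dehydrogenase gene (0.16), and the glucuronosyltransferase gene Ugt1a6a (0.24) were not called, and Slc7a5 and Xdh were called with library size alone (0.15 and 0.28). Ugt1a6b, with counts between 0 and 31.3, shares exons with Ugt1a6a, and its value is uncertain.

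Enzymes that make or remove tryptophan-derived AHR ligands were mostly low. Of 12 genes, 7 were not tested. Ido1, Ido2 and Aadat were at 0 in all libraries, and Tdo2 had at most 8 counts, so that the enzymes that open the kynurenine pathway were at or near 0. Of the 5 tested, 1 rose and 1 fell, with a median log2 fold change of 0.22, while 57.0% of all genes tested were called. Kyat1, a kynurenine aminotransferase, had 15, 17, 16 and 16 counts in the control libraries and 54, 57, 60 and 66 in the tranilast libraries, the largest change among the tested genes of these lists. It rose 3.82-fold, or by 1.93 ± 0.21 (SE) on the log2 scale (adjusted p = 4.18e-07 in edgeR's test). Kmo, the kynurenine 3-monooxygenase, had 19, 19, 20 and 16 counts against 10, 11, 5 and 5, and fell by 1.19 on the log2 scale (adjusted p = 0.00937 in edgeR's test). The groups did not overlap in either gene, and no library had more than 66 counts for either. Il4i1, an amino acid oxidase that makes indole ligands, had a log2 fold change of 0.21 (adjusted p = 0.50 in edgeR's test), which was 0.62 without control replicate 4 (adjusted p = 0.0225). Afmid (0.23) and Kyat3 (0.22) were not called.

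Of 16 other factors of the bHLH-PAS family, to which AHR and ARNT belong, 6 were tested, and 2 rose and 2 fell, with a median log2 fold change of 0.01. These 4 calls of 6 are near the 57.0% of all genes tested. Hif1a, the hypoxia factor that also pairs with ARNT, was 405 times as abundant as Ahr by mean FPKM. Ahr had 14 counts or fewer per library, and this ratio was not computed per kb of merged exons. The ratio of Arnt to Ahr was 239 by FPKM but 110 on that second scale. Hif1a fell from 220 ± 5.49 to 186 ± 7.52 CPM (SD, n = 4 each; log2 fold change -0.24, adjusted p = 1.21e-05 in edgeR's test). Epas1, which encodes HIF-2alpha, had between 6 and 12 counts and was not tested. Among the clock factors, Per3 rose (log2 fold change 0.79), Clock rose (0.15) and Per1 fell (-0.41), whereas Arntl (0.04) and Per2 (-0.01) were not called. Arnt2, the close relative of Arnt, had 0 counts in the 4 control libraries and 1, 7, 2 and 5 in the tranilast libraries, and did not pass the expression filter. The groups did not overlap, and in the fit without the filter Arnt2 was called higher (adjusted p = 0.00366 in edgeR's test), with 15 counts in all.

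The last list holds relatives of Tiparp among the ADP-ribosyltransferases and the hydrolase gene Macrod1. Of 9 genes tested, 5 fell and 0 rose, with a median log2 fold change of -0.26, and 28.8% of all genes tested fell. With the FPKM values, 2 were called, Parp12 and, in the other direction, Macrod1. Parp12, a relative with the same zinc-finger and WWE architecture as Tiparp, had between 130 and 186 CPM in the control libraries. Its tranilast libraries held between 80.2 and 111 CPM, without overlap (log2 fold change -0.75, adjusted p = 2.37e-06 in edgeR's test). Parp14 (-0.59), Parp9 (-0.50) and Parp10 (-0.44) fell with overlap between groups. Parp14 lost its call in DESeq2 (adjusted p = 0.0509), and all 3 lost theirs with the FPKM values. Parp9, Parp10, Parp12 and Parp14 moved together between libraries. In the control group each was highest in replicate 2 and lowest in replicate 4. In the tranilast group each was highest in replicate 1 and lowest in replicate 4. Their calls are therefore not separate observations in the count of falls. Parp1, the DNA damage sensor, fell by 0.13 on the log2 scale. Its call was lost with library size alone (-0.01), upper-quartile factors (-0.06), log2 (FPKM + 1) (-0.04) and log2 (FPKM + 0.1) (-0.04). Parp11 (-0.26, adjusted p = 0.0512 in edgeR's test), Zc3hav1 (-0.11, adjusted p = 0.0536), Parp16 (0.08) and Macrod1 (0.14) were not called. Parp11 was called without control replicate 1 (-0.31), control replicate 4 (-0.35) or tranilast replicate 1 (-0.34), and Zc3hav1 without control replicate 4 (-0.15) or tranilast replicate 1 (-0.13). Both were also called in DESeq2 (adjusted p = 0.036 and 0.0359), without the filter (adjusted p = 0.0129 and 0.0174 in edgeR) and with the replicate block (adjusted p = 0.0431 and 0.0264 in edgeR), and Parp11 with RLE factors (adjusted p = 0.0494) and with at least 10 counts in every library (adjusted p = 0.0479). Tiparp, with its log2 fold change of -0.07, was not called either.

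**Figure D4:**
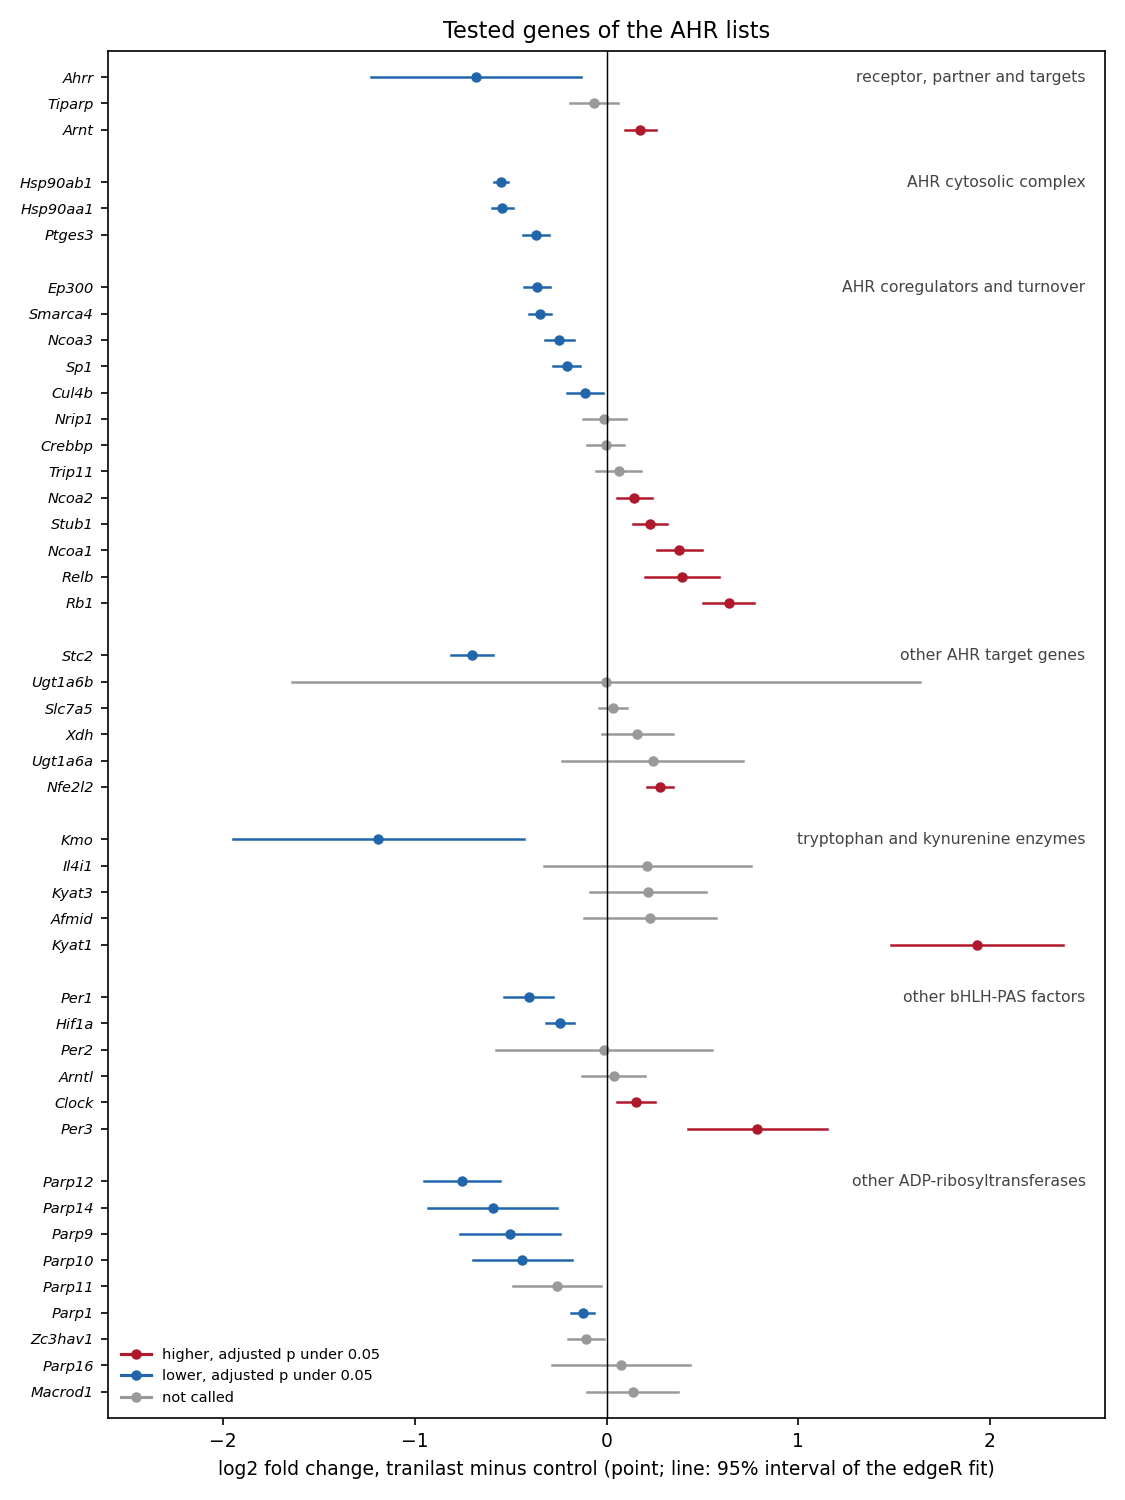
Log2 fold change (tranilast minus control; point) with its 95% interval (line) for the tested genes reported from the 6 lists and for Arnt, Ahrr and Tiparp; red is higher, blue lower and grey not called at an adjusted p-value of 0.05. The chaperone genes lie between -0.55 and -0.37, the ADP-ribosyltransferase genes between -0.75 and 0.08, and Kyat1 is farthest to the right at 1.93. The hydrolase gene Macrod1, on the same list as the ADP-ribosyltransferases, lies at 0.14.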

How the data were processed

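For each gene in 8 libraries the authors deposited estimated counts, some of them fractional, together with FPKM values that they had normalized for transcript length and depth. How reads were aligned and counted, and on which build, is not given in the sources used here. After rounding and filtering (filterByExpr, by group), 10770 genes were compared between groups in edgeR 4.0.16 (R 4.3.3) with TMM factors, the quasi-likelihood test and no covariate, and called at a Benjamini-Hochberg adjusted p-value under 0.05. The methods of the study name limma. limma-voom (limma 3.58.1), DESeq2 1.42.0, other scaling factors and filters, limma on log2 (FPKM + 1) and log2 (FPKM + 0.1), the replicate number as a block, and each library left out were alternatives. Single genes also had exact two-sided permutation tests on log2 (CPM + 0.1). Ahr was fitted without the filter. Libraries of a group differed by more than sampling noise. The code was tested on simulated data.

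The genes and the 6 lists were chosen with earlier results of these data known. A result of the cytosolic complex list is not reported here, and the counts of that list leave it out. Named are the 6 genes, the tested genes of the lists, untested ones by their counts, and the 3 genes most like each tested gene. Coordinates are from GENCODE M21 on GRCm38, 1-based, and promoters from RefSeq on GRCm38.p6, where 5 of the 6 genes matched.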

Additional observations from a re-analysis of the deposited data

Results flagged for a closer look

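In 93 groups of 4 libraries, 5 had 1 library far from the other 3 in log2 CPM by Dixon's criterion, and chance gives about 1 in 20. Cyp1b1 in control replicate 1 (-2.55, from 1 count) stood above the other control libraries (-3.32, from 0 counts). Hsp90aa1 in tranilast replicate 3 was at 9.79 against 9.75 in the others. Kmo in control replicate 4 was at 0.28 against 0.51 to 0.54. In tranilast replicate 4, Smarca4 was at 8.64 against 8.73, and Xdh was at 4.04 against 4.21 to 4.22.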

How the results depend on the processing

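Over 18 alternatives between 5618 and 6506 genes were called, and Arnt was called higher in each of them (0.16 to 0.29 on the log2 scale). Ahr was not called in any of its 16 fits (0.05 to 0.78). It could not be fitted under either filter, and Cyp1a1 and Cyp1b1 gave no value. Ahrr stayed lower in all 18 but lost its call in 9: with upper-quartile factors (-0.61, adjusted p = 0.052), library size alone (-0.56), log2 (FPKM + 1) (-0.17), log2 (FPKM + 0.1) (-0.44), the replicate block (-0.67) and 4 of the 8 fits with a library left out, whose range was -0.79 to -0.49. Of the 6 genes, 1 instead of 2 was called with those 4 scalings and with the replicate block, and 1 to 2 with a library left out. Tiparp turned to 0.0017 with upper-quartile factors, 0.0507 with library size, 0.0608 with log2 (FPKM + 1) and 0.065 with log2 (FPKM + 0.1). The cause was not tested. Per kb of merged exons, Arnt was at 10.6 and Ahrr at 0.219 CPM. The 1 or 0.1 added to FPKM shrinks the log2 differences of genes with a low FPKM, such as Ahrr and Ahr. For these genes the FPKM values cannot be compared in size with those of the count fits.

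The replicate block gave 6009 called genes and -0.67 for Ahrr (adjusted p = 0.0593, edgeR). Deviations of libraries with the same number correlated at -0.0566, -0.0414, 0.0063 and 0.103, so that no pairing by number was seen. Low correlations cannot decide whether the numbers mark a shared animal, batch or day, and the labels do not say.

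Of the lists, the other AHR targets had 4 called genes with upper-quartile factors, library size alone, log2 (FPKM + 1) and log2 (FPKM + 0.1), the tryptophan and kynurenine enzymes had 1 with at least 10 counts in every library, and the ADP-ribosyltransferases had 2 with log2 (FPKM + 1) and log2 (FPKM + 0.1) but 7 without a filter, with the replicate block, without control replicate 4 and without tranilast replicate 1. Signs turned in 9 list genes, and in those fits only Crebbp with library size alone was called (adjusted p = 0.0413, edgeR). With upper-quartile factors Crebbp was at 0.0638, Nrip1 at 0.0554, Per2 at 0.054 and Ugt1a6b at 0.0643. With library size alone Crebbp was at 0.11, Nrip1 at 0.10, Cul4b at 0.0061, Per2 at 0.10, Zc3hav1 at 0.0095 and Ugt1a6b at 0.11. With log2 (FPKM + 1) Crebbp was at 0.0885, Nrip1 at 0.0661, Per2 at 0.0259, Zc3hav1 at 0.0419, Ugt1a6b at 0.0448 and Kyat3 at -0.0531. With log2 (FPKM + 0.1) Crebbp was at 0.10, Nrip1 at 0.0759, Per2 at 0.0793, Zc3hav1 at 0.0426, Ugt1a6b at 0.32 and Kyat3 at -0.0703. Ugt1a6b was also at 0.0531 in DESeq2, 0.79 in limma-voom, 0.0173 without a filter and 0.10 with the replicate block. With a library left out, Crebbp ranged from -0.0361 to 0.0258, Nrip1 from -0.0328 to 0.0204, Ugt1a6b from -0.90 to 1.40, Arntl from -0.0174 to 0.079, Per2 from -0.15 to 0.13 and Parp16 from -0.0419 to 0.20. For genes under 10 counts, depth limits what could be seen.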

Other observations

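The deposited counts and FPKM values of Ahrr differ by more than depth. The length implied by a gene's count and FPKM was constant for Ahr, between 5.52 and 5.57 kb, but moved between 3.73 and 4.76 kb in the control libraries and between 3.84 and 4.76 kb in the tranilast libraries for Ahrr. For Arnt it was between 3.13 and 3.38 kb and for Tiparp between 3.94 and 4.19 kb. The mean FPKM of Ahrr was 0.548 ± 0.138 in the control group and 0.380 ± 0.117 in the tranilast group (SD, n = 4 each).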
